A study of Mus musculus with 12 samples.

Results

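The 10 histone deacetylase genes Hdac1 to Hdac10 were followed in RNA of murine primary alveolar type II (ATII) cells. They were chosen by gene symbol and make up 10 of the 23238 symbols counted in this study of p300 loss in bleomycin-injured lung. p300, encoded by Ep300, is a histone acetyltransferase, so these genes encode enzymes that remove the kind of mark p300 adds. The study had 4 groups of 3 libraries, each library from 1 mouse. Con was given PBS and BLM was given bleomycin, a DNA-breaking drug that injures the alveolar epithelium, at 4 mg/kg into the trachea. KO and KOBLM were given PBS and bleomycin in the same way after p300 deletion. Per the labels, mice aged 8 weeks were injected with tamoxifen at 10 mg/kg before the bleomycin, in all 4 groups. The floxed p300 allele has LoxP sites around exon 9. In the study's methods, deletion in ATII cells was driven by a tamoxifen-inducible Cre under the Spc promoter. The Con mice are called WT in the sample titles and p300 f/f in the study's text. The study's sorting methods name mice of a standard strain, not floxed mice, beside the knockout mice. In its qRT-PCR check of the deletion, floxed mice had received vehicle or tamoxifen. Whether Con and BLM received tamoxifen is therefore uncertain. The groups may differ in tamoxifen or strain as well as in p300, and the part of these in the comparisons of genotype was not tested. The cells were sorted on CD74 and EpCAM, and the RNA was read near the 3′ end of each polyadenylated transcript with the QuantSeq kit, so counts do not grow with transcript length.

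Histone deacetylases remove acetyl groups from lysines of histones and other proteins, which in many settings makes chromatin less accessible to transcription. Class I enzymes (Hdac1, Hdac2, Hdac3 and Hdac8) are mainly nuclear. Hdac1 and Hdac2 work in the NuRD, Sin3, CoREST and MiDAC complexes and Hdac3 in the NCoR/SMRT complex. Class IIa enzymes (Hdac4, Hdac5, Hdac7 and Hdac9) have weak catalytic activity of their own. They shuttle between nucleus and cytoplasm, repress MEF2 transcription factors in the nucleus, and are held in the cytoplasm by 14-3-3 proteins after phosphorylation. Class IIb holds Hdac6, a cytoplasmic enzyme acting on tubulin, and Hdac10, which acts on acetylated polyamines.

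Total counts per library ran from 7005005 to 11153154, and values are given as CPM, the counts of a gene per 1000000 counts of its library. A count of 3, taken as the floor of detection, is 0.269 to 0.428 CPM. The floor allows for counting error alone, because the reads carry no molecular identifiers and several may come from 1 molecule. The third BLM library (BLM 3) stood apart, with 6847 genes detected against 8790 to 13838 elsewhere. Its 17 macrophage markers summed to 1272.9 CPM against 10550.4 to 41136.3 elsewhere, and its 15 pluripotency markers to 2852.6 CPM against 464.5 to 877.5. The level of Ep300 ranged over 50.99 to 143.4 CPM in Con and 42.59 to 118.8 CPM in BLM, and over 103.0 to 153.5 CPM in KO and 54.23 to 169.4 CPM in KOBLM. It was not lower in the libraries labelled knockout, but a 3′ count lies far from exon 9 and does not check the deletion. The study reports its own checks of the deletion, by qRT-PCR on primary ATII cells and by co-immunofluorescence of lungs. Crebbp, the paralog of Ep300, was at 132.6 to 285.6 CPM over the 12 libraries and passed in no comparison by edgeR. The 12 ATII markers summed to 1450.0 to 4721.9 CPM, below the macrophage sum in all libraries but BLM 3. Lyz2 and Cd74 made up most of the ATII sum in all libraries but BLM 3, so it follows them more than the surfactant genes. Sftpc ranged from 0.554 CPM in the third KOBLM library to 611.7 in the second Con library. Epcam ranged from 2.747 CPM in the second KO library to 328.7 in BLM 3. Sftpd, Abca3 and Lamp3 were at 0 in BLM 3 and in the second of KOBLM, and Slc34a2 was at 0 in the second of KO and the third of KOBLM, which also had Sftpb and Lamp3 at 0. In such bulk RNA, fewer cells of a type and less RNA per cell cannot be told apart.

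Hdac7 was the most abundant histone deacetylase transcript, at a mean level of 175.7 CPM ± 86.67 (SD, n = 12 libraries). It was the highest of the 10 in 11 of 12 libraries, and the third KO library had Hdac5 on top. Here and below, Hdac7 counts may hold reads of Slc48a1, which lies on the opposite strand at its 3′ end. Whether the counting used strand is not given. Hdac5 followed at 51.22 CPM ± 23.81, Hdac1 at 47.12 ± 19.04, Hdac4 at 30.94 ± 22.49 and Hdac2 at 29.43 ± 16.71. Hdac1 was above Hdac5 in 8 of the 12 libraries, among them all 6 of Con and BLM, and without the third KO library the means were 45.5 CPM for Hdac5 and 49.31 for Hdac1. A lower tier held Hdac3 at 11.99 CPM ± 7.527, Hdac9 at 11.81 ± 11.65, Hdac6 at 7.99 ± 6.775 and Hdac8 at 7.875 ± 9.562, and Hdac10 came last at 1.046 ± 2.062. Each gene was compared with the next in this order by an exact sign-flip permutation test of the difference within libraries, adjusted over the 9 pairs. The order came from the same 12 libraries, so the values tested had set the pairs and their directions. The p-values do not allow for that choice and only describe how steady each step was. Hdac7 was above Hdac5 in 11 of the 12 libraries (adjusted p = 0.00879 in that test). Hdac2 was above Hdac3 in 9 (adjusted p = 0.0454), and Hdac8 above Hdac10 in 9 (adjusted p = 0.0352). Hdac1 and Hdac4 gave an adjusted p of 0.0516 in the same permutation test, and the 5 other neighbouring pairs, with adjusted p from 0.591 to 0.979, did not differ beyond their spread.

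**Figure D1:**
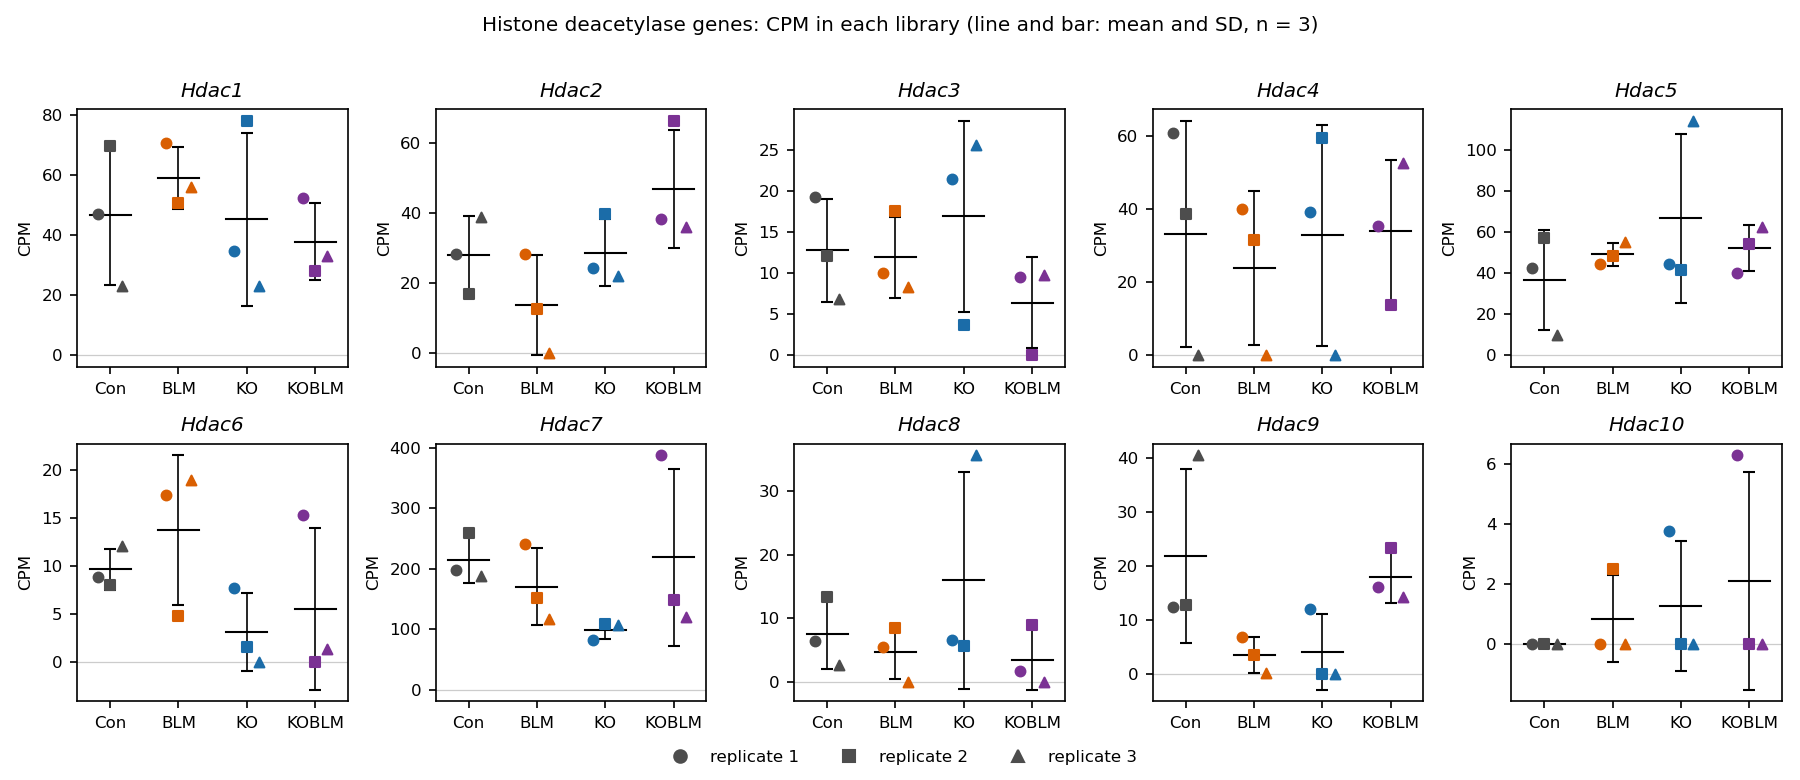
CPM (y axis, linear, a separate scale per gene) of the 10 histone deacetylase genes in the 12 libraries by group, with symbols for replicates and lines and bars for the mean and SD of 3 libraries. Hdac7 lies between 81.6 and 388 CPM, its KO libraries lie below all Con libraries, and several lower genes have libraries at 0.

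All 10 genes passed the filter on low counts and were tested among 13054 genes with edgeR's quasi-likelihood test in 1 model of the 4 groups. To pass, a gene needed a difference of more than 1.5-fold together with p under 0.05 before adjustment. None of the 10 genes passed in BLM against Con, where 4.27% of all tested genes passed. None passed in KO against Con (1.44% of all genes), in KOBLM against BLM (3.16%) or in KOBLM against KO (1.69%). None passed for bleomycin averaged over both genotypes (4.47% of all genes), for genotype averaged over both treatments (2.90%) or for the interaction of genotype and bleomycin (2.82%). With shares of 1.44% to 4.47% over all genes, 0 of 10 lies near the background. In each of the 7 comparisons 0 of the 10 genes had an unadjusted p under 0.05 by edgeR and 0 by DESeq2, and the Benjamini-Hochberg adjusted p of edgeR was 1 for every one of them. Over all genes edgeR gave an adjusted p under 0.05 to 0 genes in any comparison, and DESeq2 to 57 to 114.

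The median log2 fold change of the 10 genes was -0.16 in BLM against Con, where the median of all tested genes was -0.08. The medians were 0.21 against -0.09 in KO against Con, 0.30 against 0.10 in KOBLM against BLM and 0.29 against 0.08 in KOBLM against KO. They were -0.07 against 0.03 for bleomycin and 0.14 against -0.01 for genotype, and the interaction gave -0.19 against 0.23. The 95% confidence intervals were wide, and least wide for Hdac7, the most abundant gene. In BLM against Con the interval of Hdac7 ran from -1.53 to 0.95 in log2 units and that of Hdac9 from -7.47 to 2.43, so changes of several fold in the lower genes were not detectable with this spread.

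**Figure D2:**
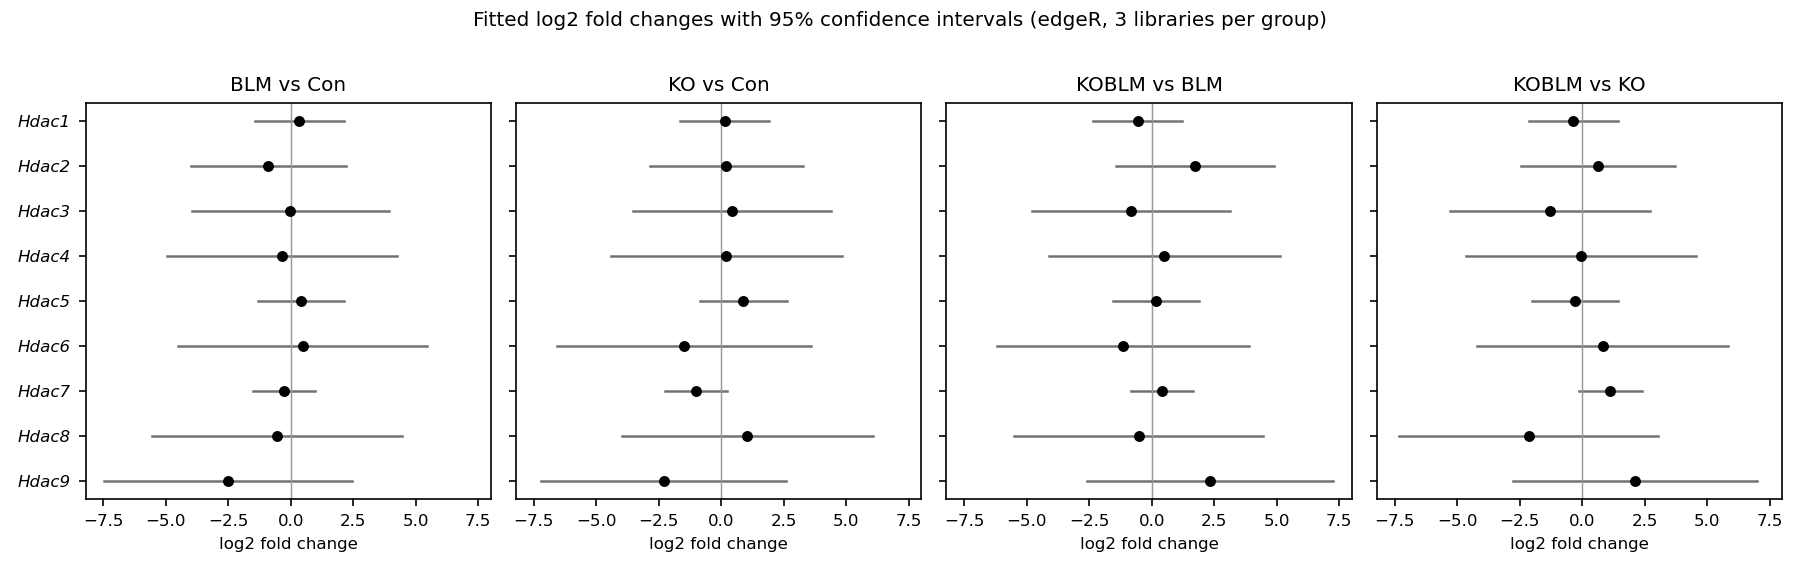
Fitted log2 fold change (x axis) of Hdac1 to Hdac9 in the 4 pairwise comparisons, with points for the edgeR estimate and lines for the 95% confidence interval. Every interval includes 0, and those of Hdac7 in KO against Con (-2.26 to 0.24) and KOBLM against KO (-0.12 to 2.38) reach least far past it on one side.

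Among class I genes, Hdac1, the catalytic subunit shared by NuRD, Sin3 and CoREST (chr4:129516104-129542713, minus strand, GENCODE M21 on GRCm38), was present in all libraries. Its level was 47.08, 69.51 and 23.19 CPM in Con and 70.52, 50.52 and 56.04 in BLM. It was 34.57, 77.87 and 23.04 CPM in KO and 52.19, 27.93 and 33.03 in KOBLM. The groups overlapped in every comparison, and the fitted log2 differences lay between -0.55 ± 0.83 (SE) in KOBLM against BLM and 0.34 ± 0.83 in BLM against Con. Over the 12 libraries Hdac1 was lower where the macrophage marker sum was higher (Pearson's r = -0.54, Spearman's rho = -0.79), with an r of -0.81 without the 2 libraries farthest from the median of that sum. The part of macrophage RNA in the Hdac1 values was not tested. The genes most like Hdac1 were Ahi1 (r = 0.89), Palld (r = 0.89) and Ptgis (r = 0.88), on the log2 (CPM + 1) scale over 12 libraries.

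Hdac2, the close paralog of Hdac1 in the same complexes (chr10:36974544-37001889, plus strand), was at 28.49, 16.90 and 39.02 CPM in Con and at 28.55 and 12.80 in the first BLM libraries, with 0 counts in BLM 3. It was at 24.33, 39.97 and 22.21 CPM in KO and 38.27, 66.37 and 36.25 in KOBLM. All KOBLM libraries lay above all BLM libraries, as did 1 other member of the 10 in that comparison, while 11.0% of all tested genes did not overlap there in one direction or the other. The log2 difference was 1.74 ± 1.47 (95% interval -1.41 to 4.89), with p = 0.256 by edgeR before adjustment and an exact permutation p on CPM of 0.1, the smallest that 3 against 3 libraries allow. Without BLM 3 the log2 difference was 1.15. Over the 12 libraries Hdac2 went with the macrophage marker sum (Pearson's r = 0.85, Spearman's rho = 0.38), which fell to an r of 0.44 without the 2 libraries farthest from the median of that sum, so the relation rests on those libraries. The same holds for its r of 0.83 with the lymphocyte sum, which was 0.35 without the 2 farthest, and of -0.82 with the pluripotency sum, which was -0.27. Itfg1 (r = 0.98), Mms19 (r = 0.97) and Tmem106b (r = 0.97) were most like Hdac2, with values of 0.85, 0.84 and 0.77 without BLM 3.

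The ratio of Hdac1 to Hdac2 counts varied within groups, from 0.59 to 4.11 in Con, from 1.04 to 1.95 in KO and from 0.42 to 1.36 in KOBLM. In BLM it was 2.47 and 3.95 in the libraries with Hdac2 counts. The 250 bases before the RefSeq start of Hdac2, chr10:36974294-36974543 on the plus strand of GRCm38.p6, are shown as an example of a CpG-rich class I promoter. Matches to 4 motifs on either strand are in capitals. They are the GC box GGGCGG, the CCAAT box, the AP-1 letters TGANTCA and the letters TTNNGNAA of C/EBP, a family of factors that recruit p300.
Hdac2: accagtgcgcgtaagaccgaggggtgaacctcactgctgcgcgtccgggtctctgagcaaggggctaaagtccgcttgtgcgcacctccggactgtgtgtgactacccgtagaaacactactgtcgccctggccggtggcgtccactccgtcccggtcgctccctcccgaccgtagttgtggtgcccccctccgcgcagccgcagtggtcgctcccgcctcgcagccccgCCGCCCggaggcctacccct
The window holds 27 CG dinucleotides and 68.8% G and C, against a median of 6 and 52.4% over 32851 RefSeq promoter entries, and 1 GC box, which 32.7% of those entries hold. CCAAT was found in 33.8% of all entries, the AP-1 letters in 6.7% and the C/EBP letters in 36.8%, and none of them in this window.

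Hdac3, the deacetylase of the NCoR/SMRT complex, was at 19.26, 12.08 and 6.88 CPM in Con and 9.99, 17.55 and 8.25 in BLM. It was at 21.39, 3.71 and 25.54 CPM in KO and at 9.50, 0 and 9.76 in KOBLM. The second KOBLM library was the only one of the 12 without a count, and no groups were separate. The fitted log2 differences ran from -1.27 ± 1.87 in KOBLM against KO to 0.43 ± 1.84 in KO against Con. Rhbdd2 (r = 0.92), Tmem248 (r = 0.92) and Rlim (r = 0.90) were most like it.

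Hdac8, an X-linked class I enzyme that deacetylates the cohesin subunit Smc3 (chrX:102284639-102505359, minus strand), was a low transcript with 1 high library. It was at 6.42, 13.26 and 2.64 CPM in Con, 5.43, 8.44 and 0 in BLM, and 1.61, 8.86 and 0 in KOBLM. In KO it was at 6.59, 5.63 and 35.62 CPM, the last of these being the third library. The log2 difference of KO against Con was 1.05 ± 2.35 and became -0.11 without that library. Its 3′ end lies within 500 nt of Gm14858 on the opposite strand, and whether the counting used strand is not given in the sources used here.

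Among class IIa genes, Hdac7, known from vascular endothelium and thymocytes (chr15:97792664-97844502, minus strand), had the smallest standard errors of the 10 genes. It was at 197.1, 258.8 and 188.4 CPM in Con and 241.5, 152.2 and 117.5 in BLM. It was at 81.61, 108.6 and 106.5 CPM in KO and at 387.5, 147.7 and 120.7 in KOBLM. The KO libraries were the lowest 3 of the 12 and overlapped neither Con nor KOBLM, while BLM overlapped both Con and KOBLM.

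In KO against Con the mean CPM of Hdac7 was 0.46 times that of Con, with a log2 difference of -1.01 ± 0.58 (95% interval -2.26 to 0.24). By edgeR p = 0.107 before adjustment, and the exact permutation p on CPM was 0.1. In that comparison 3 of the 10 genes, Hdac6, Hdac7 and Hdac9, did not overlap, beside 9.74% of all tested genes. In KOBLM against KO the mean CPM was 2.21 times as high and the log2 difference 1.13 ± 0.59 (95% interval -0.12 to 2.38). By edgeR p = 0.0734 before adjustment, and the exact permutation p was again 0.1. There Hdac7 and Hdac9 did not overlap, beside 6.82% of all genes, though the KOBLM and KO libraries of Hdac7 did overlap when Rn45s, the ribosomal RNA precursor, was left out of the library totals. Both comparisons share the KO libraries.

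The call on Hdac7 turned with single libraries. Without BLM 3, which belongs to neither comparison, Hdac7 passed in KO against Con (log2 -1.01, beside 2.51% of 14084 genes) and in KOBLM against KO (log2 1.13, beside 3.07%). In a model of those 2 groups alone KO against Con also passed (log2 -0.99), as did 2.04% of 11190 genes. KOBLM against KO passed without the second KOBLM library (log2 1.37), as did 1.23% of 14144 genes, and came to 0.41 without the first KOBLM library, the one with 387.5 CPM. BLM against Con gave -0.29 ± 0.58 and KOBLM against BLM 0.42 ± 0.58, and the interaction was 1.42 ± 0.82 (95% interval -0.34 to 3.18).

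Endothelial markers moved with Hdac7. The summed level of 10 such genes (Pecam1, Cdh5, Kdr, Tek, Tie1, Vwf, Cldn5, Egfl7, Emcn and Erg) was 619.3, 1036.6 and 852.4 CPM in Con and 810.4, 332.6 and 276.9 in BLM. It was 483.3, 76.4 and 79.2 CPM in KO and 1709.3, 366.3 and 310.6 in KOBLM. Over the 12 libraries Pearson's r with Hdac7 was 0.78 and Spearman's rho 0.82, and r was 0.84 without the 2 libraries farthest from the median of the sum. All 10 markers were above the floor in 6 libraries, while 7 were at 0 in the third KO library and 6 in BLM 3. The part of endothelial RNA in the Hdac7 values was not tested. Of 8942 genes with a mean of at least 10 CPM, those whose log2 (CPM + 1) went most closely with Hdac7 were Klf2, a flow-induced factor of endothelium (r = 0.83), Cldn18, a tight-junction gene of alveolar epithelium (r = 0.82), and Podxl, an endothelial and podocyte sialomucin (r = 0.79). Without BLM 3 these values were 0.87, 0.90 and 0.79.

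**Figure D3:**
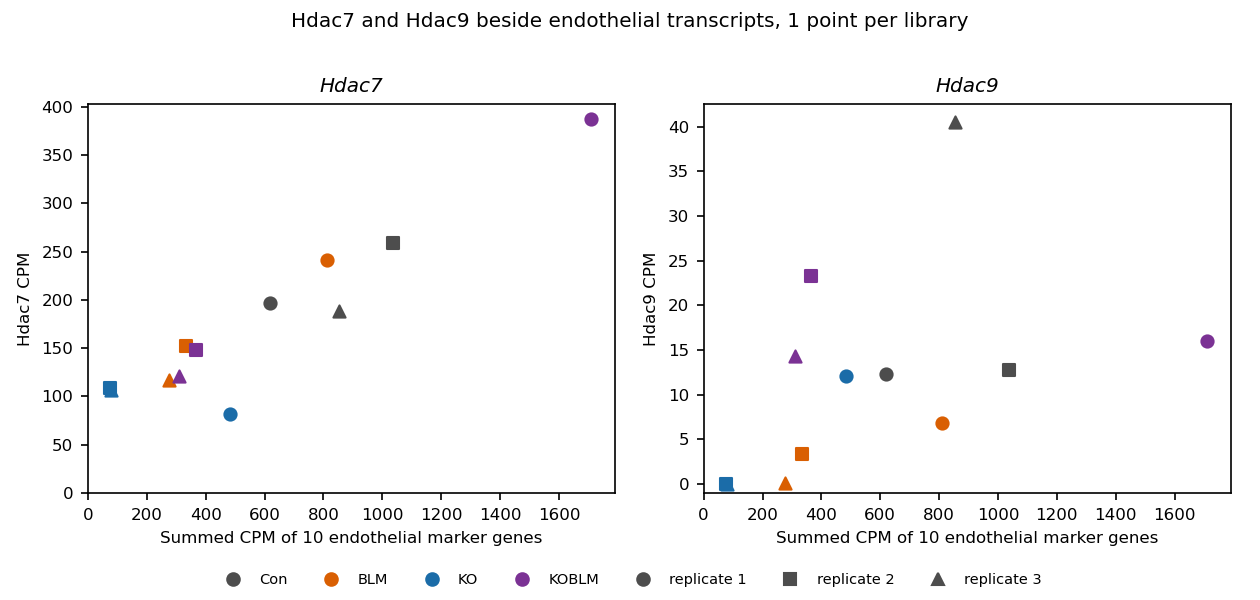
Level of Hdac7 (left) and Hdac9 (right) in CPM against the summed CPM of 10 endothelial marker genes, with 1 point per library, colors for the groups and symbols for the replicates. The first KOBLM library is highest on the marker axis (1709.3 CPM) and in Hdac7 (387.5 CPM), while its Hdac9 (16.06 CPM) lies below the third Con library (40.53 CPM).

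RefSeq lists 4 starts of Hdac7 among the promoter entries, of which the window at chr15:97831496-97831745 (minus strand, GRCm38.p6) is shown because it has the most G and C, at 74.0% with 25 CG dinucleotides.
Hdac7: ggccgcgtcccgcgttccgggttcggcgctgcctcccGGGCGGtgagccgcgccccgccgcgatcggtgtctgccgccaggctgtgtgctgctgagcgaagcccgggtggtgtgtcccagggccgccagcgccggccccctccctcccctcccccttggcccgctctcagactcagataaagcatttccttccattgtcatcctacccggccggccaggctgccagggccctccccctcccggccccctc
It holds 1 GC box, in capitals, and none of the other 3 motifs. The other 3 windows hold 5 to 21 CG dinucleotides, and 1 of them holds the C/EBP letters. The 3′ counts do not tell which start a transcript came from. Slc48a1 lies on the opposite strand within 500 nt of the 3′ end of Hdac7, and without a stated use of strand reads of the pair may not be separable.

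Hdac9, the class IIa gene best known from muscle and vessel wall (chr12:34047580-34917095, minus strand), was the only member whose groups did not overlap in all 4 pairwise comparisons on CPM, though KO and Con did overlap after TMM scaling and with Rn45s left out of the totals. It was at 12.31, 12.83 and 40.53 CPM in Con and at 6.85, 3.43 and 0.09 in BLM, the last being a single count. It was at 12.06, 0 and 0 CPM in KO and at 16.06, 23.31 and 14.30 in KOBLM. All BLM libraries and all KO libraries lay below all Con and all KOBLM libraries, with the nearest values, 12.06 in KO and 12.31 in Con, almost touching. In BLM against Con it was the 1 gene of 10 without overlap, where 17.1% of all tested genes did not overlap. The share was 9.74% in KO against Con, 11.0% in KOBLM against BLM and 6.82% in KOBLM against KO. How many of all tested genes lacked overlap in all 4 comparisons was not counted. In each of the 4 comparisons the exact permutation p was 0.1, and the comparisons share their groups.

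The fitted log2 differences of Hdac9 were -2.52 ± 2.31 in BLM against Con, -2.3 ± 2.29 in KO against Con, 2.34 ± 2.3 in KOBLM against BLM and 2.13 ± 2.28 in KOBLM against KO. The interaction was 4.65 ± 3.25 (95% interval -2.3 to 11.6). Without the first KO library, which left both KO libraries at 0, the gene passed in KO against Con, KOBLM against KO, both mean comparisons and the interaction, with fitted values that depend on the prior count. In that fit 3.20%, 2.88%, 5.34% (bleomycin), 4.97% (genotype) and 4.82% of 13953 genes passed in those comparisons. Endothelial markers moved with Hdac9 too (r = 0.78, rho = 0.70 over 12 libraries, r = 0.48 without the 2 farthest). Their part in the Hdac9 values was not tested. The genes most like it were Itpkb (r = 0.97), Thbd, the endothelial thrombin receptor thrombomodulin (r = 0.96), and Ccdc157 (r = 0.96), with values of 0.97, 0.95 and 0.95 without BLM 3.

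The window before the RefSeq start of Hdac9 farthest upstream, chr12:34917096-34917345 on the minus strand of GRCm38.p6, is shown beside those of Hdac2 and Hdac7 because it has no CG dinucleotide in 250 bases.
Hdac9: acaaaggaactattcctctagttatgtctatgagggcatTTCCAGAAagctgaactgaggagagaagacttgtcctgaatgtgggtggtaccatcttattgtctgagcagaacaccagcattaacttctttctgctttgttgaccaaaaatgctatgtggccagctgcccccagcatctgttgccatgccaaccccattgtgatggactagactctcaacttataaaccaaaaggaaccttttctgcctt
G and C make up 44.4% of it, and it holds 1 match to the C/EBP letters, in capitals, which 36.8% of all entries hold. The other Hdac9 window, chr12:34528890-34529139, has 43.6% G and C, 2 CG dinucleotides and 1 match to the AP-1 letters. Promoter entries were found for 7 of the 10 genes, as 11 windows. Hdac4 and Hdac6 each had 4 GC boxes and 2 CCAAT boxes, Hdac5 1 and 2, and Hdac8 0 and 2. A match describes the letters only.

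Hdac5, a regulator of MEF2 activity in heart and muscle (chr11:102194432-102230166, minus strand), was at 42.67, 57.21 and 9.99 CPM in Con and 44.25, 48.41 and 55.32 in BLM. It was at 44.61, 41.34 and 114.1 CPM in KO and 40.01, 54.33 and 62.41 in KOBLM. Except in the last Con library, which was low, and the last KO library, which was high, its levels stayed between 40.01 and 62.41 CPM. The log2 differences were 0.88 ± 0.81 in KO against Con, 0.41 ± 0.81 in BLM against Con, 0.19 ± 0.81 in KOBLM against BLM and -0.28 ± 0.81 in KOBLM against KO. Ddrgk1 (r = 0.94), Txndc5 (r = 0.91) and S1pr2 (r = 0.90) were most like Hdac5.

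Hdac4, known for restraining chondrocyte hypertrophy (chr1:91928779-92195699, minus strand), was either well counted or at 0. It was at 60.86 and 38.71 CPM in Con, 39.97 and 31.53 in BLM and 39.03 and 59.47 in KO, each time with 0 counts in the third library. In KOBLM it was at 35.46, 13.87 and 52.43 CPM. Its fitted differences ran from -0.36 ± 2.15 in BLM against Con to 0.51 ± 2.15 in KOBLM against BLM. The genes most like it were ChkbCpt1b (r = 0.99), Rnf111 (r = 0.98) and Thumpd1 (r = 0.98), over libraries of which 3 had Hdac4 at 0.

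Among class IIb genes, Hdac6 (chrX:7930120-7947889, minus strand) was at 8.83, 8.02 and 12.06 CPM in Con and 17.42, 4.75 and 19.01 in BLM. It was at 7.71, 1.51 and 0 CPM in KO and 15.26, 0 and 1.33 in KOBLM. All KO libraries lay below all Con libraries, where 9.74% of all tested genes did not overlap, while BLM and KOBLM overlapped. The log2 differences were -1.49 ± 2.37 in KO against Con and -1.14 ± 2.35 in KOBLM against BLM. Averaged over both treatments, the knockout libraries were lower by a mean difference of -7.38 CPM, with an exact permutation p of 0.055 within treatments, the smallest of the 10 genes in that comparison and not adjusted over them. Over the 12 libraries Hdac6 went with the endothelial sum (r = 0.69, rho = 0.52, and r = 0.49 without the 2 farthest libraries) and the pluripotency sum (r = 0.52, rho = 0.68, and 0.60), and against the macrophage sum (r = -0.61, rho = -0.73, and -0.54). The part of these in the Hdac6 values was not tested.

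Hdac10 (chr15:89123307-89128700, minus strand) was counted in only 3 of the 12 libraries, with 19 counts in the second BLM library, 37 in the first KO library and 47 in the first KOBLM library. These are 2.51, 3.75 and 6.29 CPM, and all 3 Con libraries were at 0. The floor of 3 counts is 0.401, 0.321 and 0.283 CPM in those libraries, but a 0 does not bound the level there. Hdac4 was at 0 in the third Con library beside 60.86 and 38.71 CPM in the others. No fold is given for it. Hdac11, the class IV enzyme and no member of the 10, had 1 count in the first KOBLM library and none elsewhere.

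The 120 values of the 10 genes were either at or near 0 or over 10 counts. Of these 20 were at 0, 1 was a single count, none lay between 4 and 10 counts, and 99 were over 10 counts. Libraries with fewer genes detected held fewer of the 10 above the floor, namely 5 in BLM 3 (6847 genes detected), 6 in the third KO library (8790), 7 in the second KOBLM library (9018) and 8 in the third Con library (10246). The other 8 libraries, with 11139 to 13838 genes detected, held 8 to 10. Of the 7 members with a mean of 5 to 50 CPM 6 had a library at 0, and 79.0% of the 6634 tested genes with such a mean did as well.

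Class IIa transcripts made up most of the histone deacetylase counts in every library, at 61.9% to 79.6%, with class I at 16.9% to 37.6% and class IIb at 0% to 7.4%. Hdac7 alone held 46.6%, 53.1% and 58.4% of them in Con and 52.0%, 45.8% and 45.9% in BLM. It held 29.6%, 32.1% and 32.6% in KO and 64.4%, 43.1% and 36.6% in KOBLM. The summed level of the 10 genes was 322.7 to 487.3 CPM in Con and 256.2 to 464.5 CPM in BLM, and 275.6 to 338.1 CPM in KO and 330.2 to 602.2 CPM in KOBLM. The KO libraries had the lowest 3 shares of Hdac7 and the highest 3 shares of class I (31.5% to 37.6%, against 16.9% to 30.1% elsewhere), shares that move with each other by construction and carry no test.

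**Figure D4:**
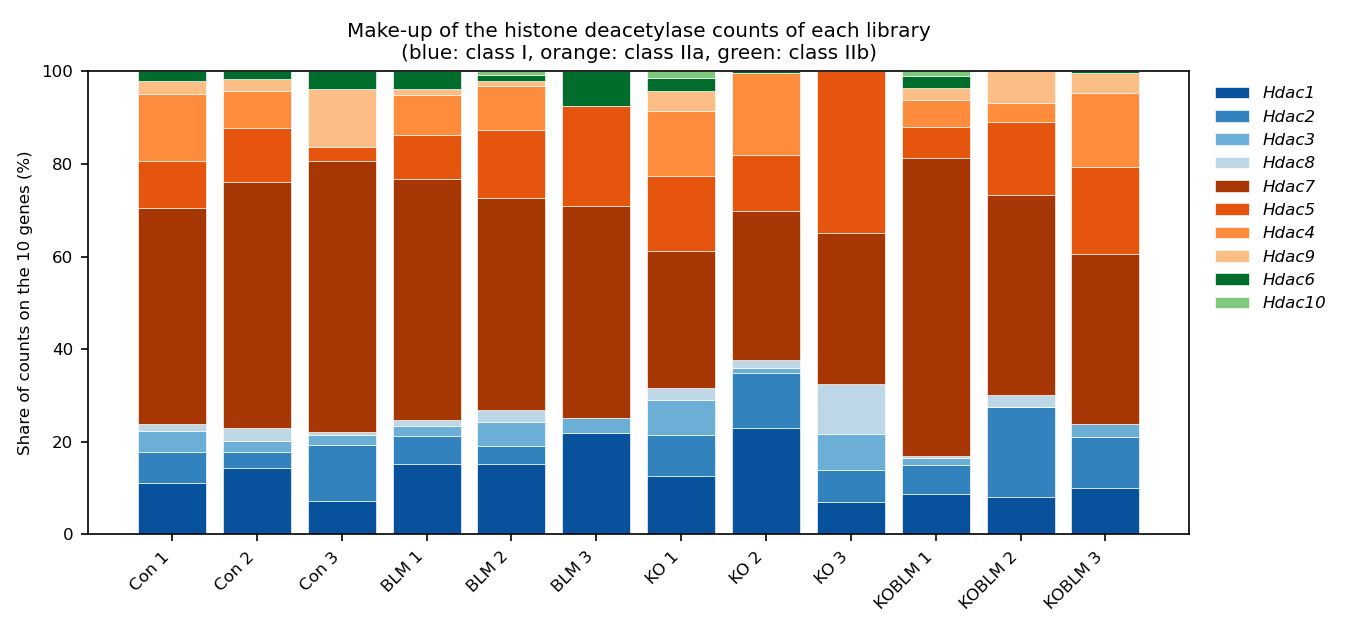
Share of each gene in the counts of the 10 histone deacetylase genes (y axis, %), with 1 bar per library, blue for class I, orange for class IIa and green for class IIb. Hdac7, the darkest orange, takes 29.6% to 32.6% in KO and 36.6% to 64.4% in the other groups.

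Of 66 genes of the enzymes' partners and relatives counted in the files, 63 were tested. They cover sirtuins (7 genes), NuRD (12), Sin3 (13), CoREST (8), NCoR/SMRT (5), MiDAC (3), MEF2 factors (4, of which 3 tested), class IIa kinases (6, of which 5 tested), 14-3-3 proteins (7) and Hdac11, which was not tested. By edgeR with all libraries, in BLM against Con 0 passed upward and 2 downward, both 14-3-3 genes, beside 4.27% of all genes. In KOBLM against BLM 1 passed upward and 2 downward, all of NuRD or Sin3, beside 3.16%. By edgeR with all libraries none passed in KO against Con or in KOBLM against KO, 1 passed downward for bleomycin averaged over genotypes, none for genotype averaged over treatments, and 1 upward for the interaction. All had an adjusted p of 0.995 or 1. The sirtuin, CoREST, NCoR/SMRT, MiDAC, MEF2 and kinase lists had 0 genes past the threshold in that fit. Out of 63 genes tested, the count that passed in each comparison lies near the share of all tested genes. The median log2 difference of the 63 genes was 0.09 in BLM against Con and -0.07 in KOBLM against BLM.

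The 14-3-3 genes Ywhab and Ywhah encode the phosphoserine-binding proteins that retain class IIa enzymes in the cytoplasm. Ywhab was at 828.2, 783.0 and 1137 CPM in Con and 409.6, 463.4 and 241.0 in BLM. It was at 780.0, 541.4 and 1172 CPM in KO and 640.1, 922.5 and 557.4 in KOBLM. All BLM libraries were below all others. Between BLM and Con 17.1% of all tested genes did not overlap, and the log2 difference of Ywhab was -1.23 ± 0.45 (95% interval -2.2 to -0.26). Averaged over both genotypes the bleomycin difference of Ywhab was -0.72 ± 0.32, and -0.56, under the fold threshold, without BLM 3.

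Ywhah was at 315.8, 352.4 and 417.3 CPM in Con and 131.0, 148.8 and 199.7 in BLM. It was at 243.5, 190.2 and 206.7 CPM in KO and 239.4, 407.9 and 155.4 in KOBLM. BLM against Con gave -1.19 ± 0.47 (95% interval -2.18 to -0.19), and the interaction 1.48 ± 0.65 (0.08 to 2.88, adjusted p = 1 by edgeR). The other 5 14-3-3 genes did not pass in any comparison of that fit.

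Chd3, a chromatin-remodelling ATPase of NuRD, was at 110.6, 126.7 and 61.92 CPM in Con and 60.81, 41.95 and 58.19 in BLM. It was at 85.76, 103.8 and 72.17 CPM in KO and 161.9, 121.0 and 138.6 in KOBLM. KOBLM lay above BLM in every library, with a log2 difference of 1.5 ± 0.58 (95% interval 0.25 to 2.75), and 11.0% of all tested genes did not overlap there.

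Mta1, a scaffold subunit of NuRD, was at 44.81, 48.34 and 33.18 CPM in Con and 67.10, 75.06 and 90.92 in BLM. It was at 32.24, 34.75 and 25.54 CPM in KO and 38.94, 10.79 and 4.99 in KOBLM. KOBLM lay below BLM in every library (log2 -1.99 ± 0.92, 95% interval -3.96 to -0.01), beside 11.0% of all tested genes without overlap. Sin3b, a scaffold of the Sin3 complex, was at 209.6, 163.2 and 135.0 CPM in Con, 194.1, 174.0 and 455.0 in BLM, 147.9, 151.6 and 214.5 in KO and 88.72, 98.15 and 116.8 in KOBLM. Its difference in KOBLM against BLM was -1.26 ± 0.5 (95% interval -2.32 to -0.2), and -0.89 without BLM 3, where it was highest.

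Which partner genes passed depended on the library and the tool, in fits added after the values were seen. Without BLM 3 edgeR again passed Chd3, Mta1 and Sin3b in KOBLM against BLM (3.34% of all genes), and in BLM against Con (5.45%) it passed Ywhab, Ywhah and, upward, Mbd2. It further passed Ing1 in KO against Con (log2 -1.13 ± 0.49, beside 2.51% of all genes). Sin3b passed in KOBLM against KO (-0.74 ± 0.35, beside 3.07%) and Brms1l for bleomycin (5.3 ± 2.32, beside 7.16%). The interaction (4.63%) passed Ywhah, Chd3 (1.49 ± 0.67) and the kinase gene Prkd1 (-10.71 ± 4.29), and genotype (4.64%) passed none of the 64 genes then tested. Prkd1 had 8 counts in the first BLM library, 16 in the first KO library and none elsewhere, so its fitted value depends on the prior count and is no measured fold.

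DESeq2 on all libraries passed Ywhab, Ywhah and, downward, Ncor1 in BLM against Con (7.25% of all genes). In KOBLM against BLM (5.78%) it passed Chd3, Ncor1 and Ywhab upward and Mta1, Sin3b and Sap30l downward. It passed Brms1l and Cdk2ap1 upward and Ywhab downward for bleomycin (6.43%), Mta1 downward for genotype (4.40%), and Ywhah upward and Sin3b downward for the interaction (4.79%). In KO against Con (2.87%) and KOBLM against KO (3.52%) it passed none. The smallest adjusted p of these partner genes was 0.6 by edgeR and 0.373 by DESeq2. In BLM 3 the NuRD list summed to 1860.6 CPM, against 890.2 to 1269.8 elsewhere. The MEF2 list summed to 44.8 CPM there, against 127.3 to 569.1 elsewhere, and the class IIa kinases to 7.7 CPM, against 73.5 to 160.0.

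**Figure D5:**
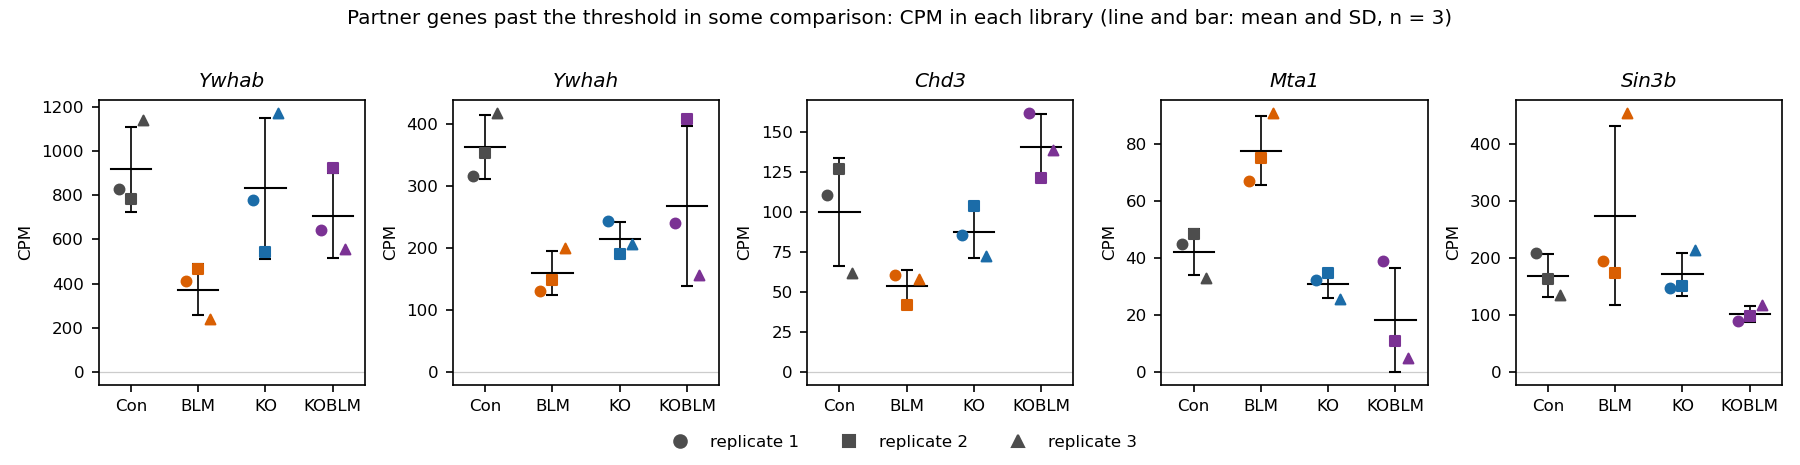
CPM (y axis, linear, a separate scale per gene) of the 5 partner genes past the unadjusted threshold of edgeR in some comparison with all libraries, by group, with symbols for replicates and lines and bars for the mean and SD of 3 libraries. Ywhab and Ywhah are lower in all BLM than in all Con libraries, and Chd3 is higher and Mta1 and Sin3b lower in all KOBLM than in all BLM libraries. Of all tested genes 17.1% do not overlap in BLM against Con and 11.0% in KOBLM against BLM.

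Lymphocyte and fibroblast marker sums in BLM lay outside those of the other groups, while the neutrophil sums of Con and BLM overlapped. Lymphocyte markers (11 genes) summed to 0 to 71.5 CPM in BLM and to 231.8 to 1148.2 CPM in the other 9 libraries. Fibroblast markers (10) summed to 1134.3 to 1895.5 CPM in BLM and 83.6 to 741.2 CPM elsewhere. The BLM 3 sum of 1134.3 CPM came from 3 collagen genes, Col1a1, Col1a2 and Col3a1. The other 7 markers, Pdgfra, Pdgfrb, Dcn, Lum, Tcf21, Inmt and Mfap4, were at 0 there. Neutrophil markers (7 found of 8) summed to 161.0 to 3825.7 CPM in Con and 140.0 to 5880.1 CPM in BLM, with 354.8 to 843.5 CPM in KO and 1407.1 to 2210.0 CPM in KOBLM. Their part in the values of Hdac9, Ywhab and Ywhah, which were low in BLM like the lymphocyte markers, was not tested.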

How the data were processed

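ATII cells sorted from 12 mice were sequenced, 3 mice in each of Con, BLM, KO and KOBLM. The authors deposited raw counts of reads per gene symbol, without normalization, from the QuantSeq kit. The submitters' processing notes name mm10, Bowtie2 and edgeR, and the counting program, annotation and use of strand are not given in the sources used here. Groups and replicate numbers came from the sample titles, and the members and gene lists were chosen with earlier results of these data known. Replicates are separate mice.

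Symbols listed more than once (79 entries of 35 symbols, none of them a member) were summed. Genes were filtered with filterByExpr (minimum count 10, minimum total 15), which kept 13054, scaled by TMM (factors 0.84 to 1.25) and fitted with the quasi-likelihood test of edgeR 4.0.16 on R 4.3.3 in 1 model of the 4 groups with 8 residual degrees of freedom. The common dispersion was 2.08. P-values were two-sided and adjusted by Benjamini-Hochberg over all tested genes. CPM of single genes were compared by two-sided exact permutation tests, and 3 against 3 cannot go below 0.1. DESeq2 1.42.0, other scalings, no filter, a replicate block, models of 2 groups and the omission of each library were the alternatives. The steps were tested on simulated counts, with success required only at a dispersion far under 2.08, so the test does not speak to data with this spread.

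The genes named are the 10 members, Ep300, Crebbp, partner genes past the threshold (up to 5 per comparison and direction), and, for members with a mean of at least 10 CPM, the 3 genes with the highest Pearson correlation of log2 (CPM + 1). The partner genes named from the fit without the third BLM library or from DESeq2, the order of Hdac5 and Hdac1 without a library, Hdac11, and the library counts at 0 were chosen after values were seen. Gene coordinates are those of GENCODE M21 (GRCm38) and promoter sequences those of RefSeq on GRCm38.p6, of which the 250 bases before each start were used. The study's other experiments were not analysed here.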

Additional observations from a re-analysis of the deposited data

Results flagged for a closer look

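The levels of Hdac9 after bleomycin lay on opposite sides of the PBS levels in the genotypes as labelled. All 3 BLM libraries (0.09 to 6.85 CPM) lay below all 3 Con libraries (12.31 to 40.53 CPM), while all 3 KOBLM libraries (14.30 to 23.31 CPM) lay above all 3 KO libraries (0 to 12.06 CPM). Of all tested genes 17.1% did not overlap in BLM against Con and 6.82% in KOBLM against KO. The interaction term of edgeR was 4.65 ± 3.25 in log2 units with an adjusted p = 1, so the difference between the effects did not pass that test. The interaction of Ywhah passed the unadjusted threshold, at 1.48 ± 0.65 with an adjusted p = 1 by edgeR, and 1.52 without the third BLM library. Groups of 3 libraries are too small for a formal test of outlying values within a group, and none was made.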

How the results depend on the processing

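No histone deacetylase gene passed under the other scalings, without the filter on low counts, with DESeq2, or at an adjusted p under 0.05. By fold alone 3 genes passed in BLM against Con, 6 in KO against Con, 5 in KOBLM against BLM, 7 in KOBLM against KO, 4 for bleomycin, 3 for genotype and 8 for the interaction, where 64.9%, 52.5%, 64.1%, 55.2%, 51.8%, 48.7% and 71.9% of all tested genes did. Each count includes Hdac10, whose fitted fold is no bound, and is lower by 1 without it. A model of the 2 groups alone gave 1, Hdac7, in KO against Con. Leaving out 1 library gave 0 to 1 genes in KO against Con, KOBLM against KO, the bleomycin and genotype means and the interaction, and 0 in BLM against Con and KOBLM against BLM. These were Hdac7 without the third BLM or the second KOBLM library and Hdac9 without the first KO library.

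Of the 288 quoted fold changes recomputed with 1 library left out 8 changed sign. The log2 ranges of those genes were -0.94 to 0.37 for Hdac4 in BLM against Con, -0.07 to 1.04 for Hdac4 in KOBLM against BLM, -0.05 to 0.94 for Hdac5 in BLM against Con, -0.01 to 0.39 for Hdac5 in KOBLM against BLM, -0.49 to 0.18 for Hdac5 in KOBLM against KO, -0.25 to 0.79 for Hdac7 in KOBLM against BLM and -0.11 to 1.83 for Hdac8 in KO against Con. Over all genes DESeq2 passed more genes than edgeR, with 947 against 558 in BLM against Con, 374 against 188 in KO against Con, 755 against 413 in KOBLM against BLM, 460 against 221 in KOBLM against KO, 840 against 584 for bleomycin, 575 against 379 for genotype and 625 against 368 for the interaction, and the cause was not tested. Of 63 partner genes edgeR passed 2, 0, 3, 0, 1, 0 and 1 in the 7 comparisons in the same order. The shares of all genes were 4.27%, 1.44%, 3.16%, 1.69%, 4.47%, 2.90% and 2.82%. The fit without the third BLM library passed 3, 1, 3, 1, 1, 0 and 3 of 64. There the shares of all genes were 5.45%, 2.51%, 3.34%, 3.07%, 7.16%, 4.64% and 4.63%. DESeq2 passed 3, 0, 6, 0, 3, 1 and 2 of 63, beside 7.25%, 2.87%, 5.78%, 3.52%, 6.43%, 4.40% and 4.79%. The last 2 fits were added for the partner genes after seeing the data. With a library left out, Hdac7 ranged from -1.17 to -0.81 in KO against Con and from 0.41 to 1.41 in KOBLM against KO. None of the 166 values under other settings changed sign. Of 80 group levels under other scalings 1 moved by more than 1 SD, Hdac5 in BLM with Rn45s left out of the totals.

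The replicate numbers did not pair the samples, since same-numbered libraries of different groups correlated by -0.12 to 0.1 and others by -0.1 to 0.15. With the replicate block 0 genes passed in each comparison, and Hdac7 gave -0.98 in KO against Con and 0.98 in KOBLM against KO. All members but Hdac10 were counted above the floor in most libraries, and with a common dispersion of 2.08 the width of the intervals reflects the spread between libraries.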
